A study of Mus musculus with 8 samples.

Results

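The mitochondrial ribosomal proteins are the nuclear-encoded proteins of the ribosome inside mitochondria, and their genes carry symbols that begin with Mrpl (large subunit) or Mrps (small subunit) followed by a digit. All genes with such a platform symbol were taken, which gave 61 genes (38 of the large and 23 of the small subunit) of 8653 named genes on the arrays. They were read from 75 of 12131 named spots. The names rest on the platform annotation read 11 spots further on than the spot number it gives, and 1 further Mrps6 spot lay beyond the limit of that reading and was left out.

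Mitochondrial ribosomes make the few proteins that mitochondrial DNA encodes, all of them hydrophobic subunits of the respiratory chain and of ATP synthase. The ribosome's proteins are made in the cytosol, imported and assembled on rRNA that is transcribed inside the organelle. Many have a bacterial counterpart, while others occur only in mitochondria. Neurons depend heavily on oxidative phosphorylation, and loss-of-function changes in several of these genes are known to cause disease of brain, heart or liver.

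Whole-brain total RNA of 4 male mutant mice, 19 weeks old and labelled ADAR-/-/GluR-BR/R, was hybridised to 2-colour cDNA arrays against pooled brain RNA of wildtype males of that age. The mutants have lost the RNA-editing enzyme ADAR2, which Adarb1 encodes, and both their Gria2 (GluR-B) alleles encode the arginine form of that glutamate receptor subunit in place of the glutamine form. The design asks how brain RNA of these mutants differs from that of wildtype mice. Each mouse was measured on 2 arrays of opposite dye orientation, here called its mutant-Cy5 array and its mutant-Cy3 array after the dye on the mutant's RNA. All mutants carried both changes and the pool neither, so the loss of ADAR2 and the Gria2 alleles cannot be told apart. The series' design text counts 4 wildtype mice in the pool and the labelling protocol a larger number, and the pool counts as 1 control sample whose own spread is not in any test.

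Values are log2 ratios of the 2 channels, and each array's median over its spots was set to 0. The labels do not say which channel is the numerator, so no value is given as up or down in the mutant. The mean ratio of a mouse is the mean of its 2 arrays, and would be the mutant against the pool if all ratios had been turned the same way. Its swap component is the mutant-Cy5 array's value minus the mutant-Cy3 array's, divided by 2, and would be the mutant against the pool if every ratio were Cy5 over Cy3. In that case a difference between mutant and pool would cancel in the mean ratio, which would hold only what stays the same when the dyes are exchanged. In the other case it would cancel in the swap component. Which case holds is not known. A gene passed the test at an adjusted p below 0.05 (limma over all 8107 genes with values on all 8 arrays, Benjamini-Hochberg adjustment, 4 mice).

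Arrays held 20211 to 20559 usable values each, and the number of arrays limits the precision. Over 18797 spots, arrays of the same dye orientation correlated at 0.224 to 0.68, and the 2 arrays of a mouse at 0.257 to 0.392. The targeted gene, Adarb1, had 3 probes whose place on the transcript is not given. Adjusted p of single probes are from a separate limma fit over those 18797 spots. Their mean ratios were 0.12, 0.70 (adjusted p = 0.0226) and 0.26, and their swap components -0.099, -1.23 (adjusted p = 0.0383) and -1.33 (adjusted p = 0.0424). The ratios hold no expression levels, so the presence of brain cell markers could not be checked. Neuron markers had a median mean ratio of 0.82 over 10 genes (7 positive past the test), astrocyte markers 0.72 over 8 genes (5 positive) and oligodendrocyte markers 0.60 over 7 genes (4 positive). Blood markers had -0.93 over 4 genes (1 positive and 3 negative), and microglia markers -0.023 over 5 genes (1 positive and 2 negative). Endothelial markers had 0.24 over 3 genes and those of choroid plexus and ependyma 0.37 over 2 genes, with 1 positive in each. In the swap component 5 neuron, 3 oligodendrocyte, 1 astrocyte and 1 blood marker passed, all negative. Over all genes 20.6% passed positive and 12.4% negative in the mean ratio, and 7.94% negative in the swap component. The part of these shifts in the results below was not tested, and in whole brain fewer cells of a type and less RNA per cell cannot be told apart.

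Promoters of 54 of the 61 genes were found in RefSeq (build GRCm38.p6), 57 in all, each from 250 bases before to 50 bases after the start of transcription. The YY1 element AAGATGGCG occurred on either strand in 8 of the 57 (14%), against 2.66% of the 8539 promoters of all tested genes and 1.4% of all 32851 promoters. The ETS site CCGGAAGT occurred in 9 (15.8%, against 7.03% and 3.89%), and the core of the site for NRF1, a regulator of nuclear genes for mitochondrial proteins, GCGCATGCG, in 4 (7.02%, against 3.24% and 1.75%). The CCAAT box (CCAAT) occurred in 25 (43.9%, against 37.9% and 37.4%), and TATAAA in 4 (7.02%, against 7.93% and 13.6%). No motif contains another, matches may overlap by position, and a match is a description and no bound site. The YY1 element lay in promoters of Mrpl35, Mrpl36, Mrpl37, Mrpl42, Mrps11, Mrps18a, Mrps24 and Mrps27, and the NRF1 core in those of Mrpl9, Mrpl10, Mrpl17 and Mrps18b. The 150 bases before the start, written 5′ to 3′ on the gene's strand, are shown for 5 of the genes whose ratios stood out below, with a CCAAT box (Mrpl18) or the YY1 element (Mrpl36), here as the reverse complement, in capitals. Those of Mrpl23, Mrpl34 and Mrpl52 held none of the 5 motifs in this stretch. Over the whole window, from 250 bases before to 50 after the start, Mrpl18 and Mrpl52 held an ETS site and Mrpl36 also a CCAAT box.
Mrpl18 (chr17:12916092-12916241, minus strand): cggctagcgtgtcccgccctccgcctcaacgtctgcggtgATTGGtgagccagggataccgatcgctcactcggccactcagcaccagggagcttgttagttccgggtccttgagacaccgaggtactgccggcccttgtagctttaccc
Mrpl36 (chr13:73330859-73331008, plus strand): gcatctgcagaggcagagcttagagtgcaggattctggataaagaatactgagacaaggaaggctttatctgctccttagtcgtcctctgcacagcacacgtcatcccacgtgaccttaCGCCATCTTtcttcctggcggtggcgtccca
Mrpl23 (chr7:142532882-142533031, plus strand): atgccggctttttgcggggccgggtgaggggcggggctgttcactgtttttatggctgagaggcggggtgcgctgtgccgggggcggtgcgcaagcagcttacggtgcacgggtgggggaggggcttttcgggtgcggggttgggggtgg
Mrpl34 (chr8:71464776-71464925, plus strand): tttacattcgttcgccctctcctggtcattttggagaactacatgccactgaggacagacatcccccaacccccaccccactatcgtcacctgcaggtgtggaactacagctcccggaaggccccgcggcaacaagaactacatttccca
Mrpl52 (chr14:54426759-54426908, plus strand): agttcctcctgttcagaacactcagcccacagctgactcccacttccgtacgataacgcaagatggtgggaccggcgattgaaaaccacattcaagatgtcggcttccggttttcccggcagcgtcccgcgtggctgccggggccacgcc

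Of the 61 genes, 59 had values on all 8 arrays and were tested, 38 of the large and 21 of the small subunit. The others were Mrps9 and Mrps27, with values on 7 arrays each. Mrps9 lay between -0.96 and 0.041 on its arrays and Mrps27, a pentatricopeptide-repeat protein, between -3.38 and 0.43, with 3 of its 7 values at ratios of small whole numbers, which can mark weak spots. Such ratios made up 4.69% of the values of the family's spots and 6.23% of those of all spots.

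In the mean ratio most mitochondrial ribosomal protein genes lay close to the array median and few passed the test. The median over the 59 genes was 0.099 (middle range, from the first to the last quartile, -0.12 to 0.26), against 0.022 (-0.38 to 0.40) over the 8048 other genes. The median size without sign was 0.24, against 0.39 in the other genes. In all, 9 of the 59 passed, 7 positive and 2 negative (15.25%), while 33% of all 8107 genes passed, 20.6% positive and 12.4% negative. The share of the family was below the background, and 14 members had an unadjusted p below 0.05. Without mouse 1, 2, 3 or 4 the number that passed was 7, 5, 4 and 4. The share of all genes that passed fell as well, to 26.7%, 19.4%, 20.3% and 22.2%.

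**Figure D1:**
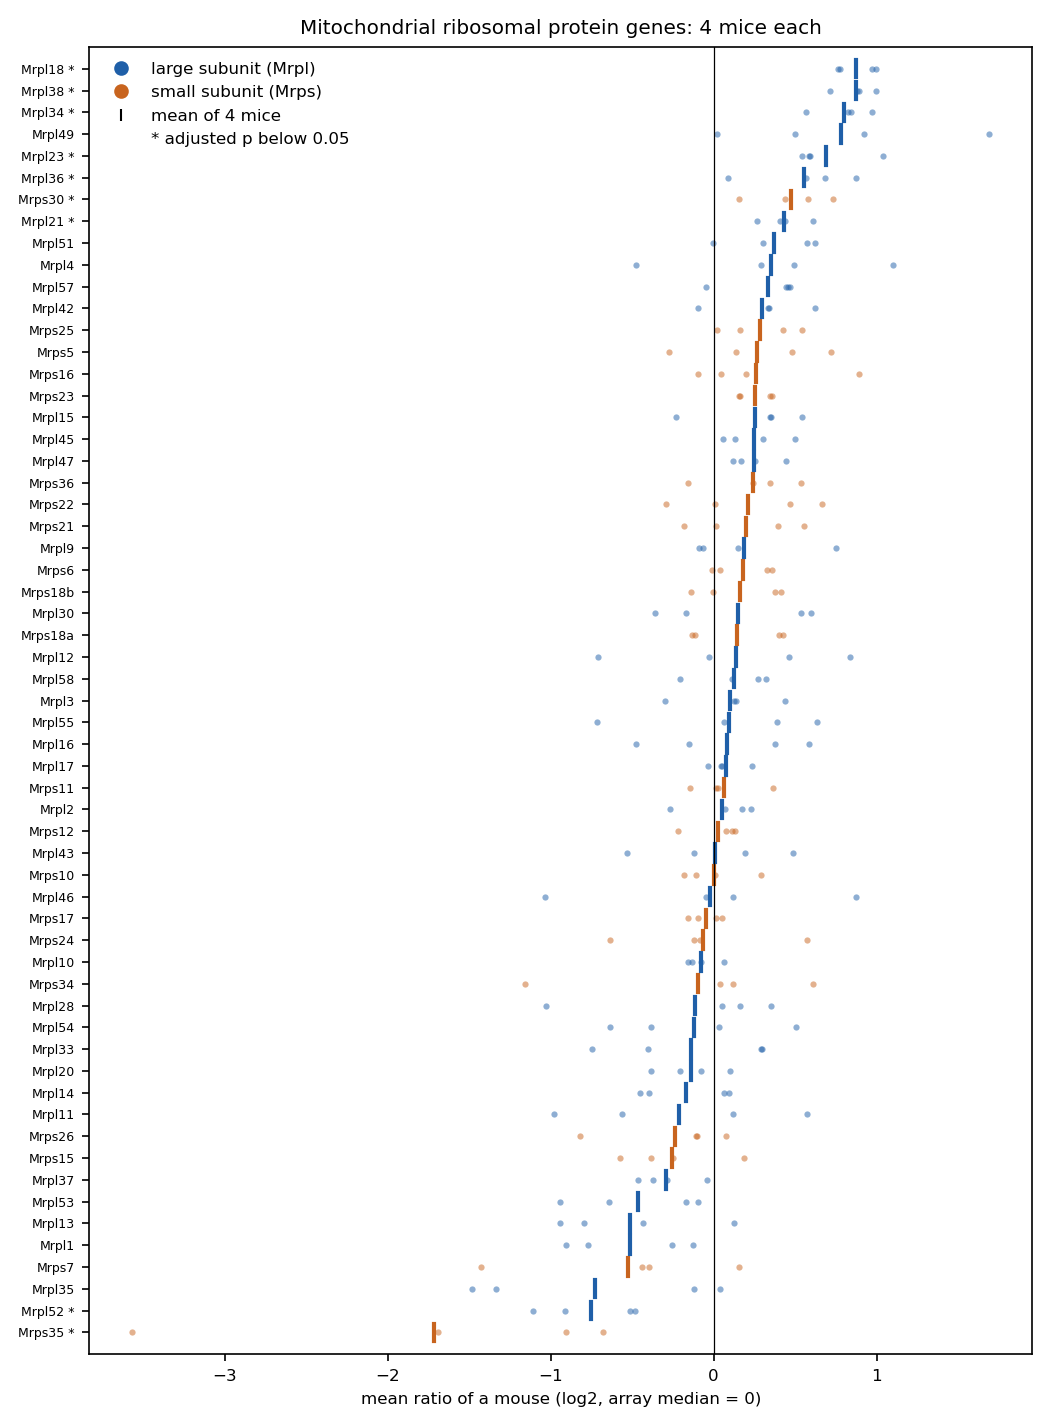
Mean ratio (log2, array median at 0) of each of the 59 tested genes, with 1 point per mouse and a bar at the mean of 4 mice, in blue for the large and orange for the small subunit and a star for an adjusted p below 0.05 (limma). Most means lie near 0, from 0.88 for Mrpl18 to -1.71 for Mrps35, whose 4 mice spread from -3.57 to -0.68.

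The genes that passed with a positive mean ratio were led by proteins of the large subunit. Mrpl18, the counterpart of a bacterial protein that binds the smallest rRNA of the large subunit, had 0.38, 0.095, 0.68 and 0.76 on the mutant-Cy5 arrays of mice 1 to 4 and 1.56, 1.46, 1.31 and 0.76 on their mutant-Cy3 arrays. All 8 values lay above 0, and in mouse 4 both arrays gave nearly the same value. Its mean ratio was 0.88 ± 0.12 (SE, 4 mice, adjusted p = 0.00548), and it passed whichever mouse was left out (adjusted p 0.0175 to 0.0291).

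Mrpl34, a small basic protein with a bacterial counterpart, had 0.62, 0.33, 0.073 and 0.86 with the mutant in Cy5 and 1.02, 1.35, 1.06 and 1.09 with the mutant in Cy3. These are averages of 2 probes. All 8 averages were again above 0, and the lowest with the mutant in Cy3 was above the highest with the mutant in Cy5. The mean ratio was 0.80 ± 0.13 (SE, adjusted p = 0.0073), and its 2 probes gave 0.68 and 0.92. The probe at 0.68 did not show this split. In mouse 3 it had -0.21 with the mutant in Cy5 and 0.32 with the mutant in Cy3. Its other mutant-Cy5 values were 0.98, 0.46 and 0.82. The average of Mrpl34 passed whichever mouse was left out (adjusted p 0.0222 to 0.037).

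Mrpl21, which also has a bacterial counterpart, had 0.24, 0.26, 0.31 and 0.59 with the mutant in Cy5 and 0.98, 0.56, 0.22 and 0.29 with the mutant in Cy3. Its values overlapped between the orientations and were above 0 on every array. The mean ratio was 0.43 ± 0.12 (SE, adjusted p = 0.041), with 0.38 and 0.48 from its 2 probes. It missed the threshold whichever mouse was left out (adjusted p 0.0768 to 0.12), with values as deposited (0.27, adjusted p = 0.126) or with runs of 48 spots centred (0.21, adjusted p = 0.222).

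Another 4 genes passed with a positive mean ratio but not with one sign on every array, and are named here after their values were seen. Mrpl38, a mitochondrion-specific protein of the large subunit, had 0.12, 0.031, -0.0045 and 0.26 with the mutant in Cy5 and 1.67, 1.72, 1.43 and 1.73 with the mutant in Cy3. The first set lay around 0 and the second far above it, and the mean ratio of 0.87 ± 0.12 (SE, adjusted p = 0.00548) is the middle of the 2 sets. Mrpl23, which in bacterial ribosomes sits at the exit of the peptide tunnel, had -0.21, 0.11, 0.49 and -0.002 with the mutant in Cy5 and 1.39, 0.97, 1.59 and 1.17 with the mutant in Cy3. Its values showed the same split, with a mean ratio of 0.69 ± 0.14 (SE, adjusted p = 0.0139) that missed the threshold without mouse 3 (0.57, adjusted p = 0.0504) and with each run of 48 spots centred (0.43, adjusted p = 0.0667). Mrpl36, the counterpart of a small zinc-binding bacterial protein, had a mean ratio of 0.55 ± 0.16 (SE, adjusted p = 0.0444), with 0.56, 0.68, 0.088 and 0.87 in the 4 mice. Mrps30, which keeps a small-subunit symbol although structures place it in the large subunit, had 0.48 ± 0.14 (SE, adjusted p = 0.0456), with 0.73, 0.58, 0.16 and 0.43 in the 4 mice. Mrpl36 passed without mouse 3 (adjusted p = 0.038) and missed the threshold without mouse 1, 2 or 4, and Mrps30 missed it whichever mouse was left out (adjusted p 0.0548 to 0.146). With values as deposited, Mrpl36 had 0.39 (adjusted p = 0.12) and Mrps30 0.31 (adjusted p = 0.102), and with runs of 48 spots centred 0.36 (adjusted p = 0.121) and 0.29 (adjusted p = 0.124).

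Both genes that passed with a negative mean ratio encode mitochondrion-specific proteins and lay below 0 on all 8 arrays. Mrpl52 of the large subunit had -0.13, -0.063, -0.997 and -1.14 with the mutant in Cy5 and -0.90, -0.91, -1.22 and -0.69 with the mutant in Cy3. Mice 3 and 4 lay below mice 1 and 2 in the first orientation, while in the second mouse 4 was the highest. The mean ratio was -0.75 ± 0.15 (SE, adjusted p = 0.0146), and it missed the threshold without mouse 3 or 4 (adjusted p 0.0539 and 0.0567).

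Mrps35 of the small subunit had -3.46, -1.24, -2.80 and -0.92 with the mutant in Cy5 and -3.67, -0.57, -0.59 and -0.44 with the mutant in Cy3. Mouse 1 was the lowest in both orientations, and mouse 3 was low with the mutant in Cy5 only. The mean ratio of -1.71 ± 0.47 (SE, adjusted p = 0.0368) had the widest spread over mice in the family (SD 1.31). Without mouse 1 it was -1.09 (adjusted p = 0.0253), and without mouse 2, 3 or 4 it missed the threshold (adjusted p 0.062, 0.0945 and 0.0502).

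**Figure D2:**
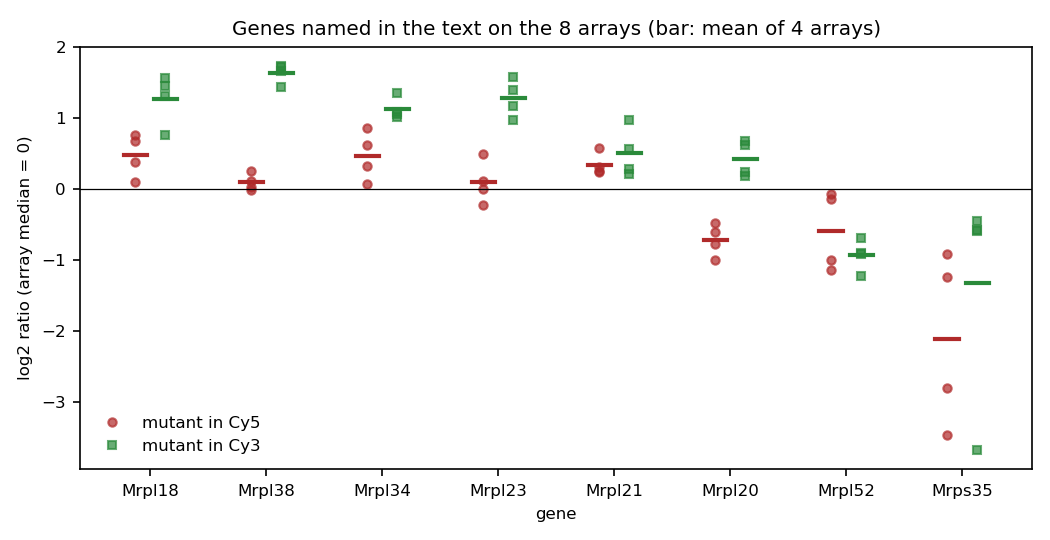
Log2 ratio (array median at 0) of 8 named genes on each of the 8 arrays, as red circles for the 4 mutant-Cy5 arrays and green squares for the 4 with the mutant in Cy3, with bars at the mean of each 4. Mrpl38 and Mrpl23 lie near 0 in one orientation and above 0.9 in the other, Mrpl20 changes sign between them, and Mrps35 of mouse 1 lies below -3 in both.

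The remaining 50 genes did not pass in the mean ratio and ranged from -0.73 (Mrpl35) to 0.78 (Mrpl49), 41 of them within 0.3 of 0. A total of 32 of the 59 lay above 0 on 3 to 5 of the 8 arrays, and 8.47% had one sign on all 8 arrays, against 20.9% of all genes. The SD over the 4 mice had a median of 0.31 and ran from 0.097 (Mrps17) to 1.31 (Mrps35). Mrpl35 illustrates how mice could differ, with 0.041 and -0.12 in mice 1 and 2 and -1.49 and -1.33 in mice 3 and 4. Mrps34 had 0.61, 0.12 and 0.038 in mice 1, 2 and 4 and -1.16 in mouse 3.

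The number of calls differed between the dye orientations, in the family as over all genes. On the mutant-Cy5 arrays no member passed (0 of 59, with 8 at an unadjusted p below 0.05 and a lowest adjusted p of 0.0774), where 0% of all genes passed (1999 at an unadjusted p below 0.05, limma). On the mutant-Cy3 arrays, 9 members passed, 8 positive and 1 negative, and 33.7% of all genes. The members' median was -0.041 in the first orientation and 0.32 in the second, against -0.0096 and 0.058 in the other genes. Of the 9 that passed with the mutant in Cy3, 7 also passed in the mean ratio, and the other two were Mrps23 (0.59 ± 0.17, SE, adjusted p = 0.0401) and Mrpl45 (0.58 ± 0.16, SE, adjusted p = 0.0393), a protein that holds the ribosome at the inner membrane. Both had means just below 0 with the mutant in Cy5 (-0.081 and -0.086).

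In the swap component 3 of the 59 genes passed, all negative and all of the large subunit (5.085%). In the background 9.31% of all genes passed, 1.37% positive and 7.94% negative. Mrpl38 had -0.77, -0.85, -0.72 and -0.74 in mice 1 to 4, a spread of 0.056 (SD), and a mean of -0.77 ± 0.099 (SE, adjusted p = 0.0271). Mrpl23 had -0.80, -0.43, -0.55 and -0.59 and a mean of -0.59 ± 0.11 (SE, adjusted p = 0.033). Both genes also passed in the mean ratio, being near 0 with the mutant in Cy5 and high with it in Cy3.

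Mrpl20, the counterpart of a bacterial protein that binds early in assembly of the large subunit, was the one of these 3 with opposite signs in the orientations in every mouse. It had -0.47, -0.78, -1.002 and -0.60 with the mutant in Cy5 and 0.68, 0.62, 0.24 and 0.18 with the mutant in Cy3. The 2 sets did not overlap and lay on opposite sides of 0 in all 4 mice. Its swap component was -0.57 ± 0.11 (SE, adjusted p = 0.033) and its mean ratio -0.14 ± 0.13 (SE, adjusted p = 0.443). Mrps12, the counterpart of a bacterial protein of the decoding centre, showed the same pattern of signs on all 8 arrays at a smaller size (-0.30 ± 0.11, SE, adjusted p = 0.117) and did not pass.

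None of the 3 passed the swap test once any mouse was left out, and then 0 of all 8107 genes passed (7 to 13 members and 1848 to 2392 of all genes at an unadjusted p below 0.05, limma). With values as deposited Mrpl38 alone of the family passed, and with runs of 48 spots centred Mrpl23 did not (-0.50, adjusted p = 0.0636). Below the threshold, the swap component of the other 56 genes ran from -0.58 (Mrps34) to 0.36 (Mrps7). In 23 of the 59 (39%, against 28.1% of all genes) the value was lower with the mutant in Cy5 than in Cy3 in every mouse. In 2 (3.39%, against 11.4%) it was higher in every mouse.

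**Figure D3:**
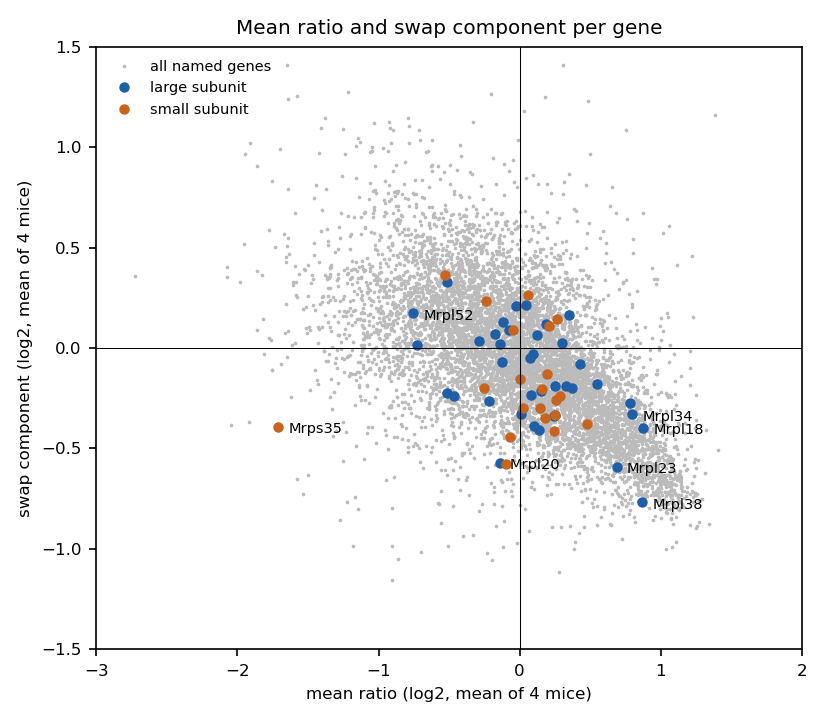
Mean ratio (x axis) against swap component (y axis) of each named gene, both in log2 and as means of 4 mice, with the 8107 tested genes in grey, the large subunit in blue and the small in orange. The members lie mostly near the centre, Mrpl38, Mrpl18, Mrpl34 and Mrpl23 lie at the lower right, and Mrps35 stands apart from the other members at the left (-1.71).

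Large and small subunit genes differed by less than the spread over mice in the mean ratio. There, 7 of 38 large subunit genes passed (18.4%, 6 positive and 1 negative) and 2 of 21 small subunit genes (9.52%, 1 positive and 1 negative), against 33% of all genes, with medians of 0.096 and 0.14. Within each mouse the median of the large minus that of the small subunit was -0.036, 0.26, 0.16 and 0.0018, a mean of 0.096 ± 0.14 (SD, 4 mice), which is smaller than its spread over mice. Its sign is opposite to that of the medians above, where the small subunit was higher. The direction thus depends on how the median is taken. The medians of the swap component were -0.18 and -0.24, and the difference was 0.042, 0.091, 0.006 and 0.11 in mice 1 to 4 (mean 0.063 ± 0.048, SD), with the large subunit above the small in all 4. With Mrps30 and Mrps18a counted with the large subunit and Mrps36 with neither, as in structures of the ribosome, the differences were 0.13 ± 0.15 (SD) in the mean ratio and 0.034 ± 0.038 (SD) in the swap component, both within their spread over mice.

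Array by array, large subunit medians with the mutant in Cy5 were 0.17, 0.11, -0.25 and -0.14 in mice 1 to 4, and small subunit medians 0.11, 0.012, -0.12 and -0.26. With the mutant in Cy3 they were 0.52, 0.59, 0.12 and -0.019 for the large and 0.42, 0.51, -0.002 and 0.14 for the small subunit. In both subunits mice 1 and 2 gave higher medians than mice 3 and 4 in either orientation. Which subunit was higher changed between arrays, and in each orientation the mice spanned a wider range than the subunits did on any array.

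**Figure D4:**
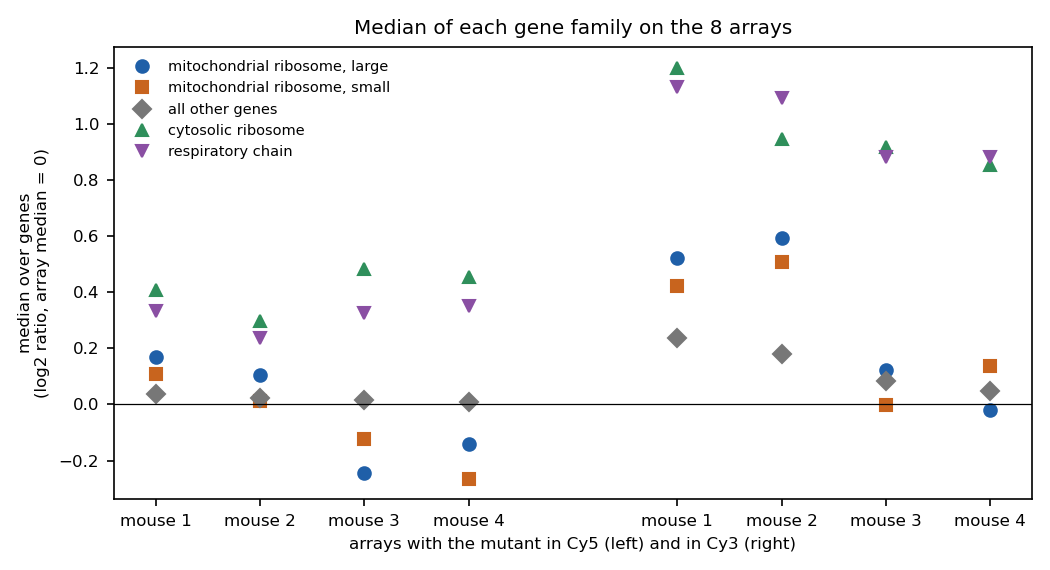
Median log2 ratio (array median at 0) over the genes of each family on each array, with the 4 mutant-Cy5 arrays at the left and the 4 with the mutant in Cy3 at the right. Both subunits of the mitochondrial ribosome are higher in mice 1 and 2 than in mice 3 and 4 and lie above the other genes in some arrays (0.59 and 0.51 against 0.18 on the mutant-Cy3 array of mouse 2) and below them in others, while cytosolic ribosomal protein and respiratory chain genes lie above 0.2 on every array.

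The whole family likewise differed from other genes in opposite directions in different mice. The median of the members minus that of the other genes was 0.20, 0.13, -0.036 and -0.11 in the mean ratio of mice 1 to 4, a mean of 0.045 ± 0.14 (SD) that does not exceed the spread over mice and is -0.0049 without mouse 1. For the swap component it was -0.058, -0.06, -0.10 and -0.13, below 0 in all 4 mice (mean -0.087 ± 0.035, SD). On single arrays the members' median ran from -0.23 (mouse 3, mutant in Cy5) to 0.56 (mouse 2, mutant in Cy3), and that of the other genes from 0.008 to 0.23.

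The proteins of the cytosolic ribosome and the nuclear-encoded subunits of the respiratory chain had other values on the same arrays. Of 59 tested cytosolic ribosomal protein genes 44 passed in the mean ratio (74.6%, 43 positive and 1 negative), with a median of 0.78. Of 68 respiratory chain genes 46 passed (67.6%, 43 positive and 3 negative), with a median of 0.62. Over all genes 33% passed, 20.6% positive and 12.4% negative. The mitochondrial ribosomal proteins, at 9 of 59 and 0.099, thus stood closer to the other genes than to either family in the mean ratio. Their medians in the swap component were both -0.35, against -0.20 in the mitochondrial ribosome and -0.077 in all genes. These comparisons of families are counts and medians, and no test of a difference between families was made.

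Several of the genes were spotted more than once, and their probes often disagreed. Adjusted p of single probes are from a separate limma fit over 18797 spots and those of gene averages from the fit over 8107 genes. Of the 12 with at least 2 complete probes, 6 had one sign in the mean ratio of all their probes (50%, against 53.7% of 2244 other such genes), and the range between probes had a median of 0.49 (0.53 in the others). Mrpl10, the protein at the base of the stalk that recruits translation factors, had probes at 0.48 (adjusted p = 0.0395) and -0.64 (adjusted p = 0.021). Mrps17 of the small subunit had probes at -0.61 (adjusted p = 0.0257) and 0.52 (adjusted p = 0.049). Both genes thus had probes that passed in opposite directions, as did 4.86% of the other such genes, and their averages lay near 0 (-0.077 and -0.048). The probe sequences are not given, so which probe reads the named transcript is not known. With signs shared in only about as many such genes as not, the gene names, and with them every value given under a name, are uncertain.

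Of the other repeated genes, Mrpl49 had 1 probe at 1.36 ± 0.14 (SE, adjusted p = 0.00592), above 0 on all 8 arrays (0.30 to 2.16), and another at 0.20 ± 0.45 (SE, adjusted p = 0.75) that ran from -1.63 to 2.09. Its average of 0.78 did not pass (adjusted p = 0.0704). Mrpl37 had probes at -0.78 (adjusted p = 0.0113) and 0.20 (adjusted p = 0.383), and Mrps18b at 0.48 (adjusted p = 0.0473) and -0.15 (adjusted p = 0.529). In each of these 3 genes 1 probe passed and the gene's mean did not. Mrpl17 had 0.55 (adjusted p = 0.041), -0.11 and -0.22 from its 3 probes. Mrpl4 had 0.48 and 0.23, Mrps10 0.075 and -0.072, Mrps23 0.43 and 0.077, and Mrps25 0.32 and 0.25, none of them past the threshold. In the swap component 1 probe of Mrps23 passed (-0.54, adjusted p = 0.0423) and the other did not (-0.13, adjusted p = 0.573).

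**Figure D5:**
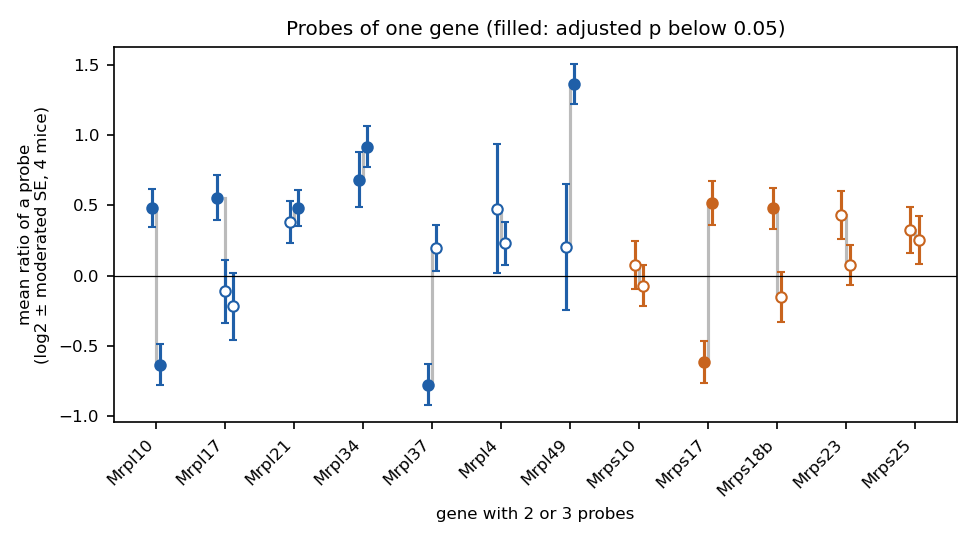
Mean ratio of each probe (log2, with the moderated SE over 4 mice) for the 12 genes with 2 or 3 complete probes, blue for the large and orange for the small subunit, filled where the adjusted p was below 0.05 (limma over 18797 spots). The probes of Mrpl34, Mrpl21 and Mrps25 lie close together, and those of Mrpl10 and Mrps17 lie on opposite sides of 0.

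Genes that build, feed or use the mitochondrial ribosome were taken in 5 lists, beside a background of 33% of all genes passing in the mean ratio (20.6% positive, 12.4% negative) and 9.31% in the swap component, where none of these genes passed. Of 4 tested ribosome components with other symbols 2 passed (50%), both positive: Chchd1 (0.58 ± 0.13, SE, adjusted p = 0.0182) and Ptcd3 (0.48 ± 0.11, SE, adjusted p = 0.0223), both of the small subunit. Of 8 translation factors 1 passed (12.5%), the release factor gene Mtrf1l (0.69 ± 0.13, SE, adjusted p = 0.0111). Tufm, the elongation factor that brings tRNAs to the ribosome, had -0.012 ± 0.13 (SE).

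Among 10 genes that help to form correctly charged mitochondrial tRNAs, not all of them synthetases, 4 passed (40%). The 2 positive were Gatc (0.48, adjusted p = 0.0469) and Tars2 (0.41, adjusted p = 0.044). The 2 negative were Fars2 (-1.19, adjusted p = 0.00605) and Gars (-0.90, adjusted p = 0.00506), which also serves the cytosol. Among 12 genes of ribosome assembly and rRNA modification 2 passed (16.7%), both negative: the helicase gene Ddx28 (-1.26, adjusted p = 0.0125) and the rRNA methyltransferase gene Mrm1 (-0.60, adjusted p = 0.0134). Of the 12, 2 had a mean ratio above 0 (16.7%, against 51.8% of all genes). Among 12 genes of mitochondrial DNA expression and RNA stability 2 passed (16.7%), again negative: Polg2, an accessory subunit of the mitochondrial DNA polymerase (-0.73, adjusted p = 0.0109), and Slirp, an RNA-binding partner of Lrpprc (-0.59, adjusted p = 0.0338).

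The centring of the arrays changed which genes passed. With values as deposited, without setting each array's median to 0, 10 members passed in the mean ratio, 4 positive and 6 negative. Of these 10, 6 also passed with medians at 0, and 33% of all genes passed as deposited. Over all genes the positive share of calls was 42% as deposited and 62.3% with medians at 0, as the median of all genes moved from 0.023 to -0.14 in the mean ratio and from -0.077 to 0.03 in the swap component. Mrpl18, Mrpl38, Mrpl34, Mrpl23, Mrpl52 and Mrps35 passed in the mean ratio under both. The members' medians relative to other genes are the same under both, since each array shifts as a whole.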

How the data were processed

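Per the labels, brain total RNA was purified on columns and its cDNA dyed with Cy3 or Cy5 in an indirect procedure before hybridisation to 2-colour cDNA arrays. The deposited table holds log2 ratios of the channels for 20794 spots on 8 arrays, with 1 additive constant per array, as read from the values. Not given in the sources used here were scanning, background correction, normalisation and which channel is the numerator.

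The code for an empty denominator (a ratio of 100000, on the log2 scale and shifted by the array constant) was treated as missing. Each array's median was subtracted. The platform annotation was read 11 spots further on, up to annotation number 20000, and the probes of a gene with values on all 8 arrays were averaged. Because array constants are arbitrary, centred values were preferred to those as deposited, which are an alternative. Per gene, an intercept-only model in limma 3.58.1 under R 4.3.3 (functions lmFit, then eBayes) tested the mean ratio, the swap component and each orientation over 4 mice against 0, with Benjamini-Hochberg adjustment over 8107 genes. Single probes were fitted in the same way, but over all 18797 spots with values on all 8 arrays, named or not, with adjustment over those spots. The 2 arrays of a mouse count as 1 replicate, and standard errors are the moderated ones. The script was tested on simulated data.

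Weak spots were recognised as ratios of whole numbers up to 10 within 0.001 (log2), which ordinary ratios can meet by chance. The members and all gene lists were chosen with earlier results of these data known, and so was the naming shift. Families are described by counts and medians, with no test. Genes named singly passed the threshold in the mean ratio with one sign on all 8 arrays, or in the swap component with one sign after turning the arrays with the mutant in Cy3. Also named were every member with several complete probes, up to 2 passing genes per pathway list and every Adarb1 probe. Further names are said to be so, mark the ends of a range, were not tested or hold a promoter motif. Mrps12, Mrpl45, Gatc, Tars2 and Tufm fall outside these rules. Alternatives were values as deposited, weak spots as missing, centring in runs of 48 spots, fewer values needed, 1 probe per gene, names at the same spot number and leaving out each mouse. The subunit by structure was added after the data were seen. Protein sequences were not used here.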

Additional observations from a re-analysis of the deposited data

Results flagged for a closer look

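Among 44 sets of 4 mouse values examined for the genes named in the text, 2 held 1 value whose gap to its nearest neighbour took up more of the whole range than Dixon's critical value for 4 values allows, where chance gives about 1 in 20. For Mrpl23 the mean ratio of mouse 3 was 1.04, against 0.54 to 0.59 in the other mice. For Mrps10 the swap component of mouse 3 was 0.123, against -0.27 to -0.22 in the other mice.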

How the results depend on the processing

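In the mean ratio 9 members passed, while 33% of all genes did. Under the other settings with the same names 7 to 11 passed, while 26.1% to 41.8% of all genes did. The number of members tested differed in some, with 10 of 43 with weak spots missing (41.8% of all genes) and 7 of 61 with fewer values needed (28.8%). With names read at the same spot number 16 of 56 passed, against 32.1% of all genes. Leaving out 1 mouse gave 4 to 7, against 19.4% to 26.7% of all genes. In the swap component 3 passed (9.31% of all genes), and 1 as deposited (3.53%). With weak spots missing 6 of 43 passed (18.25% of all genes), and with names at the same spot number 1 of 56 (5.73%). Leaving out 1 mouse gave 0, as it did over all genes. With the mutant in Cy3, 9 passed (33.7% of all genes), and 22 of 56 with names at the same spot number (32.7%). In this orientation 8 passed as deposited (34.3%) and 9 of 43 with weak spots missing (42.3%). Runs of 48 spots centred gave 13 (27%), fewer values needed 9 (32.3%) and 1 probe per gene 12 (34%). When 1 mouse was left out, 4 to 8 passed, against 17.53% to 27.95% of all genes. With the mutant in Cy5 none passed under any of these settings, with 3 to 14 members at an unadjusted p below 0.05 (limma). Names at the same spot number gave opposite signs for the mean ratio of Mrpl38 (-0.64), Mrpl23 (-0.57), Mrpl36 (-0.14) and Mrpl52 (0.54) and for the swap component of Mrpl38 (0.41). That setting reads other spots under each name. It moved the members' swap component relative to other genes to -0.0037, and large minus small subunit to 0.11. Centring in runs of 48 spots moved the last to -0.0034. The cause of these changes was not tested.

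Mrpl18, Mrpl34, Mrpl38, Mrpl52 and Mrps35 passed in the mean ratio with one sign under the 5 settings that keep the names and all mice. Of these, Mrpl18 (0.82) and Mrps35 (-0.89) also passed with that sign with names at the same spot number, which reads other spots. Centring in runs of 48 spots ended the mean-ratio calls of Mrpl21, Mrpl23, Mrpl36 and Mrps30 and the swap call of Mrpl23. Using 1 probe per gene ended those of Mrpl21 (limma adjusted p = 0.0946), Mrpl36 (adjusted p = 0.0501) and Mrps30 (adjusted p = 0.05315) in the mean ratio. Mrpl36 (adjusted p = 0.0541) and Mrps30 (adjusted p = 0.0547) also missed the threshold with fewer values needed. Of the 48 values of named members with 1 mouse left out, 29 missed the threshold and none changed sign. Over all genes the swap component gave 755 calls of 8107 genes, 1076 of 5897 with weak spots missing, 286 as deposited, 396 with runs of 48 spots centred, 460 with names at the same spot number and 0 whichever mouse was left out. The mean ratio gave 2676 calls, and 1574 to 2163 with 1 mouse left out. With the mutant in Cy5, 226 of 5897 genes passed once weak spots were missing, against 0 before. Signal over background is not in these values, so what a weak signal limits could be judged only from ratios of small whole numbers. The swap component is itself the paired difference between the 2 arrays of a mouse, and with a single group of mice there was no other pairing to fit.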
